A study of Homo sapiens and Mus musculus with 16 samples.

Results

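Open chromatin was examined around 31 genes that mark the classical subtype of pancreatic cancer or the epithelium of stomach and gut. Their regions were taken from 4 lists of accessible regions. The assay, ATAC-seq, uses a transposase that cuts and tags DNA not covered by nucleosomes. A region belonged to a gene if it lay within 50 kb of one of the gene's annotated start sites in hg38 (human) or mm10 (mouse). All 31 genes were found in the human annotation and 27 in the mouse annotation by the same symbol. LYZ, FAM3D, BTNL8 and CYP3A7 had no mouse gene of that symbol and were described in human cells only.

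The human lists came from HPAF-II, an established pancreatic adenocarcinoma cell line, as control cells that carried Cas9 and as HNF4G-KO cells, in which the nuclear receptor gene HNF4G was disrupted by CRISPR-Cas9. The knockout cells were a pool of individual knockout clones of this 1 line. The mouse lists came from untreated cell lines of the KPC model of pancreatic cancer, one from a primary tumor and one from a matched liver metastasis (mets). Each group had 4 replicates among the 16 samples, but each list stands for a whole group, so no value here has a replicate check and no p-value could be given. Near the members lay 358 of 118107 regions of the control list, 306 of 97047 of the HNF4G-KO list, 240 of 68074 of the tumor list and 257 of 80843 of the mets list. The score given with each region has no stated scale and was used only as a percentile rank within its own list.

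The classical subtype of pancreatic cancer is the better differentiated of the main expression subtypes, and its tumors express secreted, adhesion and brush border proteins that are otherwise made by stomach and intestine. In the gut, HNF4 nuclear receptors, CDX homeobox proteins, GATA factors, FOXA factors and HNF1 bind at such genes. Accessibility marks places where factors may bind, and does not measure transcription. Among the members, AGR2 and AGR3 encode disulfide isomerase family proteins, and REG4, SPINK4, GKN1, GKN2, LYZ, CTSE, PLA2G10 and FAM3D encode secreted or vesicle proteins of mucous and glandular cells. CLDN18, CDH17, LGALS4, GPA33, VSIG2 and BTNL8 act at cell contacts or the cell surface, TSPAN8, TM4SF4, TM4SF5 and CLRN3 are membrane proteins with 4 membrane spans, SLC44A4 is a transporter and ANXA10 an annexin. VIL1, MYO1A, KRT20, DPP4 and ANPEP build or sit in the brush border and cytoskeleton, CDX1 and CDX2 are homeobox factors, CYP3A7 is a cytochrome P450, and PRR15L is a proline-rich protein of unclear role.

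The promoters of EPCAM, KRT8, KRT18, KRT19 and CDH1, which mark ductal epithelium, were open in all 4 lists. Of the other cell type markers, both fibroblast genes, COL1A1 and PDGFRB, had a promoter region in each HPAF-II list. Of 4 immune genes 2 were open in control and 1 in HNF4G-KO, of 3 hepatocyte genes SERPINA1 in both, of 3 acinar genes CELA3A in control and CPA1 and CELA3A in HNF4G-KO, and neither endothelial gene. In the KPC lists PECAM1 and COL1A1 were open in both, and no immune or acinar marker. Only 2 of the 3 hepatocyte genes were found by symbol in the mouse annotation, and neither was open. The part of other cells in the results was not tested.

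The HNF4 consensus CAAAGTCCA was found in 8 of the 358 control regions near members (2.23%, 95% Wilson interval 1.14 to 4.35) and in 1.60% of all control regions. The sequences are shown because HNF4G is the factor removed in the knockout. They are read from hg38, oriented so that the consensus reads forward, with the consensus in capitals and 16 bases on each side. The eighth region, in an intron of CDH17, is included in the counts, and its sequence is not shown here.
REG4 at chr1:119816517-119816557 (minus strand): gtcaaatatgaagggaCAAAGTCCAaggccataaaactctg
CTSE at chr1:206048782-206048822 (minus strand): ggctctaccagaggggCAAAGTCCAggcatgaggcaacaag
CLRN3 at chr10:127873086-127873126 (minus strand): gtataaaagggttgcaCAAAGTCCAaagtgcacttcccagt
CLRN3 at chr10:127886753-127886793 (plus strand): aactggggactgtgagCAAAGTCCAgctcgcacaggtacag
MYO1A at chr12:57049099-57049139 (minus strand): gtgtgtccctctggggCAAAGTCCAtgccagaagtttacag
MYO1A at chr12:57050135-57050175 (plus strand): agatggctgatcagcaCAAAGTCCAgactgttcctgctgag
CDX1 at chr5:150143051-150143091 (minus strand): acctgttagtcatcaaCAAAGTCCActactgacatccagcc
SLC44A4 at chr6:31851504-31851544 (plus strand): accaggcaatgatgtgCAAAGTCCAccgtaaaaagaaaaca

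The site nearest to a member's start was at MYO1A, the brush border myosin, where the consensus lay 26 bases upstream of an annotated start and a second lay 1010 bases downstream in the same region. All 8 regions were in both HPAF-II lists. All 8 had a lower percentile in HNF4G-KO, by a median of 8.39 points, from −3.78 for the CTSE region to −16.3 for the far CLRN3 region. Among all shared control regions with the consensus, 1140 of 1464 (77.9%) were lower, by a median of 6.50 points (−6.50), and among all shared regions 70.0% were lower. Ranked among shared regions alone, 7 of the 8 were lower, against 58.9% of all regions with the consensus. None of the 81 control-only regions near members held an exact match to the consensus, beside 1.43% of all control-only regions. The Wilson interval allows a share of up to 4.53%. Sites that differed from the consensus by a letter were not counted here.

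In the mouse lists, 4 of 240 tumor regions near members held the HNF4 consensus (1.67%, 0.650 to 4.21), beside 1.48% of all tumor regions. These sites are shown from mm10 in the same way.
Gpa33 at chr1:166160889-166160929 (plus strand): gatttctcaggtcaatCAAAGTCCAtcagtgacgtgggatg
Krt20 at chr11:99454297-99454337 (minus strand): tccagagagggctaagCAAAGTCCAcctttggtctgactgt
Agr2 at chr12:36007776-36007816 (plus strand): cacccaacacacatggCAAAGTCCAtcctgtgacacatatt
Lgals4 at chr7:28833947-28833987 (plus strand): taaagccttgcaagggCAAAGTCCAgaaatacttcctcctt

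In mets the regions at Gpa33 and Lgals4 ranked higher than in the tumor line, by 23.2 and 23.3 points. The region at Agr2 ranked 26.2 points lower (−26.2), and the Krt20 region, at percentile 83.3 in tumor, overlapped a pair of mets regions. The one that holds the site stood at 56.9 (−26.4 points), and the one with the longer overlap stood at 92.7 (9.42 points) and does not hold it. Of the 4 sites, Gpa33 and Lgals4 thus lay in regions of higher rank in mets and Agr2 and Krt20 in regions of lower rank. The Lgals4 site lay 113 bases downstream of an annotated start, inside the promoter region, and no other mouse site lay in a promoter region of a member.

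Promoter regions were defined as regions within 1 kb of an annotated start. In control, 23 of 31 members had one (74.2%, 56.8 to 86.3), beside 74.8% of all protein-coding genes. In HNF4G-KO, 21 of 31 had one (67.7%), beside 72.7% of genes. In the tumor line 13 of 27 had one (48.1%), beside 57.9%, and in mets 17 of 27 (63.0%), beside 59.1%. All intervals cover counting error only, and each of these 4 intervals included the share of all genes. In the upper 50% of each KPC list, the count of members with a promoter region was the same in tumor and mets. Their share was below that of coding genes there, 46.3% in tumor and 48.3% in mets. Without a promoter region in either HPAF-II list were AGR3, SPINK4, GKN1, GKN2, PLA2G10, VSIG2, ANPEP and CDX1. In both KPC lists, AGR3, REG4, GKN2, PLA2G10, VSIG2, CLRN3, MYO1A, DPP4, ANPEP and CDX1 lacked one.

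**Figure D1:**
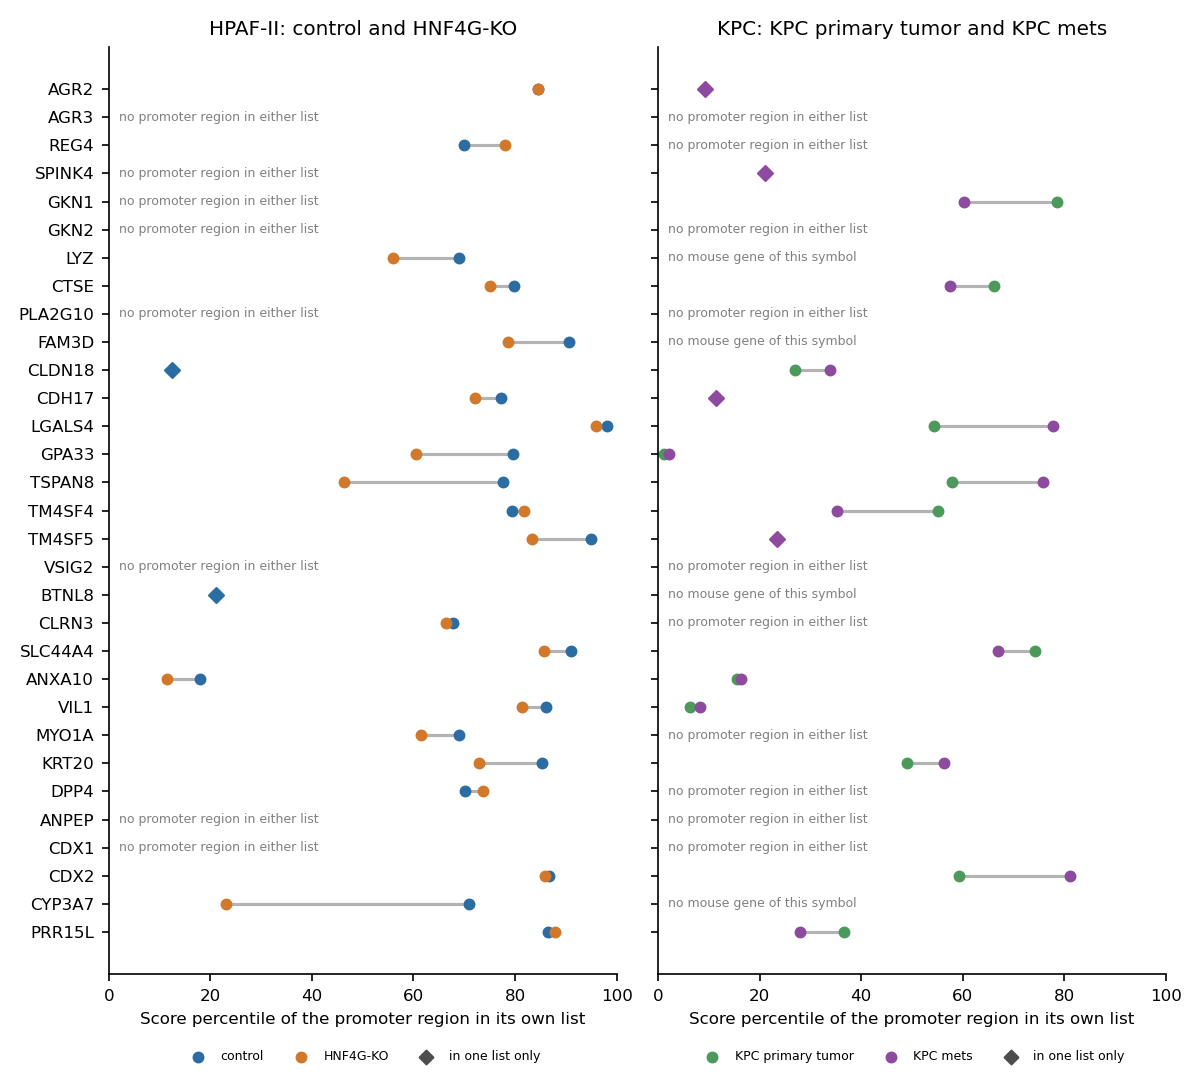
Score percentile of the strongest promoter region of each member, with HPAF-II on the left (control blue, HNF4G-KO orange) and KPC on the right (primary tumor green, mets purple); the grey line joins the values of one promoter, and diamonds mark a promoter region in one list only. CYP3A7 and TSPAN8 show the longest shifts to the left in HNF4G-KO, and the diamonds of CLDN18, BTNL8, AGR2, SPINK4, CDH17 and TM4SF5 all lie below the 25th percentile.

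The promoters of CLDN18 and BTNL8 were open in the control list only, as were 3.59% of the coding genes open in control. CLDN18 encodes a tight junction claudin of the stomach, and BTNL8 a butyrophilin-like protein that takes part in the control of gut T cells. The CLDN18 sequence below covers the outermost of the 3 annotated starts of the gene, and which transcript it serves was not examined. These sequences are shown because they are the only member promoters open in control and absent from HNF4G-KO. Capitals mark a match to one of 7 consensus sequences, here the FOXA consensus TGTTTAC on the reverse strand at CLDN18. Sequences longer than 300 bases are cut to the 300 around the region's center.
CLDN18 at chr3:137998563-137998862 (plus strand): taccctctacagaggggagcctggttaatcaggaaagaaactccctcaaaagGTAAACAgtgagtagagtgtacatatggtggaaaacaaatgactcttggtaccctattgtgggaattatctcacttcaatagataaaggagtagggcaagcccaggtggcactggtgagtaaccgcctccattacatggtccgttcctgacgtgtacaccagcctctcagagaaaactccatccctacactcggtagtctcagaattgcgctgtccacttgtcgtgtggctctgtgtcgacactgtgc
BTNL8 at chr5:180898908-180899189 (plus strand): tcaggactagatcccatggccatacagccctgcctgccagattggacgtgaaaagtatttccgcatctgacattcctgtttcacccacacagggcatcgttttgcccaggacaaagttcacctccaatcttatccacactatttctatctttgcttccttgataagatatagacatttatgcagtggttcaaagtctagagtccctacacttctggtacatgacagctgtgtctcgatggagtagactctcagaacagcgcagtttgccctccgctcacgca

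Both were weak. The strongest CLDN18 promoter region stood at percentile 12.5 of the control list and a second at 11.3, and BTNL8 stood at 21.2. In the lower tercile of the control list, the lowest of 3 equal parts by score, 60.2% of all regions were control-only, so regions of this rank were missing from the HNF4G-KO list more often than not. No member promoter was open in HNF4G-KO only, beside 0.871% of the coding genes open there. Besides these, single control-only regions lay at further start sites of AGR2 (percentiles 46.1 and 24.4), REG4 (6.69), FAM3D (4.44) and TM4SF4 (3.80), genes whose strongest promoter region was in both lists.

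In the KPC pair the promoters of Agr2, Spink4, Cdh17 and Tm4sf5 were open in mets only, beside 3.71% of the coding genes open in mets. No member promoter was open in the tumor line only, beside 1.83% of genes open there. Agr2 encodes a disulfide isomerase of the secretory pathway, Spink4 a protease inhibitor of goblet cells, Cdh17 the intestinal cadherin, and Tm4sf5 a membrane protein of the L6 family. The sequences at Agr2, Cdh17 and Tm4sf5 are shown because these promoters were absent from the tumor list, and the sequence at Spink4 is not shown here. Capitals mark the AP-1 consensus TGANTCA at Agr2 and Cdh17, and the Tm4sf5 region holds none of the 7 consensus sequences.
Agr2 at chr12:35992352-35992552 (plus strand): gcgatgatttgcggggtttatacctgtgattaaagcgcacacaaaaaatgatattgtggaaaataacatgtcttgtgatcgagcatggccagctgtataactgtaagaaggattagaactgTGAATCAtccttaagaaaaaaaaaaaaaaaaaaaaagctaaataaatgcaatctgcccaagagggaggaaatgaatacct
Cdh17 at chr4:11757069-11757351 (plus strand): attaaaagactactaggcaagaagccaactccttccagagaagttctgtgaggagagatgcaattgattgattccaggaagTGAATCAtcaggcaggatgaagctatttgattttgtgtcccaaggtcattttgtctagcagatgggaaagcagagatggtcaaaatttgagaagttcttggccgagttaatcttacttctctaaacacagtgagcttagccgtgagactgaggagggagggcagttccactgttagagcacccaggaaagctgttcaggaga
Tm4sf5 at chr11:70510159-70510375 (plus strand): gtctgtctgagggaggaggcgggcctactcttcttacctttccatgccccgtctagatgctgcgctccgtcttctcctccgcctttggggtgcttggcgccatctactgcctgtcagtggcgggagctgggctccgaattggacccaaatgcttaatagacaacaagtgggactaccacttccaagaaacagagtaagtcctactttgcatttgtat

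These regions were weak too. Their percentiles in mets were 9.21 for Agr2, 21.03 for Spink4, 11.4 for Cdh17 and 23.4 for Tm4sf5, in the lower tercile of the list, where 45.0% of all regions were mets-only. The Tm4sf5 region covered an annotated start inside the gene, and the Agr2 and Cdh17 regions lay 355 and 796 bases from the start.

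The strongest promoter region was in both lists for 21 members in HPAF-II. Of these, 7 fell by at least 10 percentile points in HNF4G-KO, a limit set after the values were seen, and none rose by as much. Among all coding genes 11.8% fell and 4.87% rose by 10 points. When percentiles were taken among shared regions only, 5 members fell and 2, REG4 (16.3) and DPP4 (11.5), rose by 10 points, beside 5.67% and 15.2% of coding genes. The members' promoters began lower, at a median percentile of 79.6 in control against 85.8 for all coding genes, and the part of that in the counts was not tested.

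CYP3A7, a cytochrome P450 of fetal liver, showed the largest fall. The only control region within 1 kb of any of its annotated starts covered a start inside the gene, not the outermost one. This region stood at percentile 71.0 in control and 23.1 in HNF4G-KO, a difference of −47.9 points, or −42.5 when ranked among shared regions. Only 0.118% of coding promoters and 0.641% of all shared regions changed by as much or more in that direction. The sequence around its center is shown as the member promoter that moved most, and it holds none of the 7 consensus sequences.
CYP3A7 at chr7:99720507-99720806 (plus strand): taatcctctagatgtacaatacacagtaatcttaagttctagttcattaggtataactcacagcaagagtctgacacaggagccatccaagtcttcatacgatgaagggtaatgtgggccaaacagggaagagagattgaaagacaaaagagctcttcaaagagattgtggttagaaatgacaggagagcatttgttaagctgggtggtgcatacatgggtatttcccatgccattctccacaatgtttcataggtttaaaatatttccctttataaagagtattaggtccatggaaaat

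TSPAN8, a tetraspanin of the gut surface, was next. Its promoter region went from percentile 77.6 to 46.3 (−31.2 points), a fall reached by 1.12% of coding promoters. GPA33, the colonic A33 antigen, went from 79.6 to 60.5 (−19.1 points). The remaining falls past 10 points were LYZ, lysozyme, from 69.0 to 55.9, KRT20, the intestinal keratin, from 85.3 to 72.9, FAM3D, a secreted gut protein, from 90.5 to 78.7, and TM4SF5 from 94.95 to 83.4. All 7 of these were lower under both rankings, although LYZ (−6.12) and KRT20 (−9.51) were then under the limit.

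Other member promoters differed by less than 10 points. LGALS4, a galectin of the gut surface, had the strongest member promoter at percentile 98.1 in control and 96.0 in HNF4G-KO. A weaker region 823 bases from a start inside LGALS4 fell from 48.9 to 10.5 (−38.4 points), while its neighbor 772 bases from a start rose from 50.8 to 63.2. AGR2 stood at 84.5 and, in the KO region of the longer overlap, at 84.6, CDX2, a homeobox factor that directs intestinal identity, at 86.8 and 85.9, and PRR15L at 86.4 and 88.0. REG4, a secreted lectin of the regenerating family, rose by 8.03 points from 69.9 to 77.9, the largest rise among member promoters. This region lay inside the REG4 gene, near an internal start, and the other REG4 promoter region was control-only. DPP4, a brush border peptidase, rose by 3.56 points from 70.1 to 73.6.

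In the KPC pair 13 members had a promoter region in both lists. Of these 3 rose by at least 10 points in mets and 2 fell, beside 14.8% and 9.12% of coding genes. Lgals4 rose from percentile 54.4 to 77.7, Cdx2 from 59.3 to 81.2 and Tspan8 from 57.8 to 75.8. Tm4sf4 fell from 55.1 to 35.3 and Gkn1, a gastrokine of gastric mucous cells, from 78.6 to 60.2. Ranked among shared regions only, the same count of 3 rose but 5 fell, with Ctse (−14.8), Prr15l (−13.3) and Slc44a4 (−12.4) past the limit as well, beside 9.87% of coding genes that rose and 15.9% that fell. The promoters of Gpa33 and Vil1 were open but near the bottom of both lists, at 1.17 and 6.21 in tumor and 2.15 and 8.25 in mets.

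TSPAN8 moved in opposite directions in the 2 pairs, down by 31.2 points in HNF4G-KO and up by 17.9 points in mets. LGALS4 was nearly level at its main promoter in HPAF-II and rose in mets, and CDX2 did the same. The pairs share no samples and differ in species and contrast, and no test of the difference between them could be made.

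For 12 members the strongest promoter region was known in both control and tumor lists, and in 5 of these the region held the same consensus in human and mouse. The same count was not made over all genes, so 5 of 12 has no background share. The windows of CDX2, LGALS4, TSPAN8 and KRT20 are shown because they let the members' promoters be compared between species, with the consensus in capitals, and the window of the fifth is not shown here. Among all promoter regions, human control first and mouse tumor second, the CDX consensus TTTATNG was found in 16.7% and 17.1%, FOXA in 8.28% and 7.80%, and the KLF consensus GGGNGTGGC in 13.3% and 13.9%. In the same order, AP-1 was found in 24.0% and 23.5%, GATA in 5.42% and 5.64%, HNF4 in 1.41% and 1.22%, and HNF1 in 1.29% and 1.22%. No consensus searched contains another.
LGALS4 at chr19:38813179-38813217 (minus strand): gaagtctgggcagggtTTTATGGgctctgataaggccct
Lgals4 at chr7:28833918-28833956 (plus strand): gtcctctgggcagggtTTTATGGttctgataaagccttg
LGALS4 at chr19:38812970-38813010 (plus strand): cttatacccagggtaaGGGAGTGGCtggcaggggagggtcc
Lgals4 at chr7:28834073-28834113 (minus strand): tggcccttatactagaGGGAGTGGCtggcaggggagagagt
TSPAN8 at chr12:71139341-71139381 (minus strand): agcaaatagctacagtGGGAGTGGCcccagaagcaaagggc
Tspan8 at chr10:115817228-115817268 (minus strand): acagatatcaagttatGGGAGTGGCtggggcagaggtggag
KRT20 at chr17:40885060-40885098 (minus strand): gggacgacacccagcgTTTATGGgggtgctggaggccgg
Krt20 at chr11:99438161-99438199 (plus strand): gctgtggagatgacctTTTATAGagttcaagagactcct
CDX2 at chr13:27969306-27969344 (plus strand): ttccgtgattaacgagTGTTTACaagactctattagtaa
Cdx2 at chr5:147307267-147307305 (plus strand): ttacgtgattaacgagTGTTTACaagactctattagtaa

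The FOXA site of CDX2 lay 10 bases upstream of the start in human and 16 in mouse, and 31 of the 32 bases around it were identical in the 2 species. At LGALS4 17 of 32 were identical around the CDX site and 13 of 32 around the KLF site without allowing gaps. At TSPAN8 and KRT20 8 of 32 were identical (25%), the share that unrelated sequences with equal base frequencies would have on average. At KRT20 the consensus itself shared 6 of 7 letters. The KRT20 site lay 163 bases downstream of a start in human and 30 bases upstream in mouse. A match describes these letters and not a bound factor.

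Each member had between 3 and 20 control regions within 50 kb, with a median of 12. GPA33 had the most, at 20, followed by DPP4 with 19 and TSPAN8 with 17. PLA2G10 had 3 and GKN1 had 5. In HNF4G-KO the range was 3 to 17 with a median of 10. In KPC, Slc44a4 had the most, at 19 in tumor and 21 in mets, and Dpp4 the fewest, at 2 and 3. For the control list 177 of the 358 regions (49.4%) had a member's start as the nearest coding start, and the others lay nearer to the start of another coding gene. GKN1 and GKN2 lie side by side, as do AGR2 and AGR3, and 5 control regions were counted for both genes of such a pair.

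**Figure D2:**
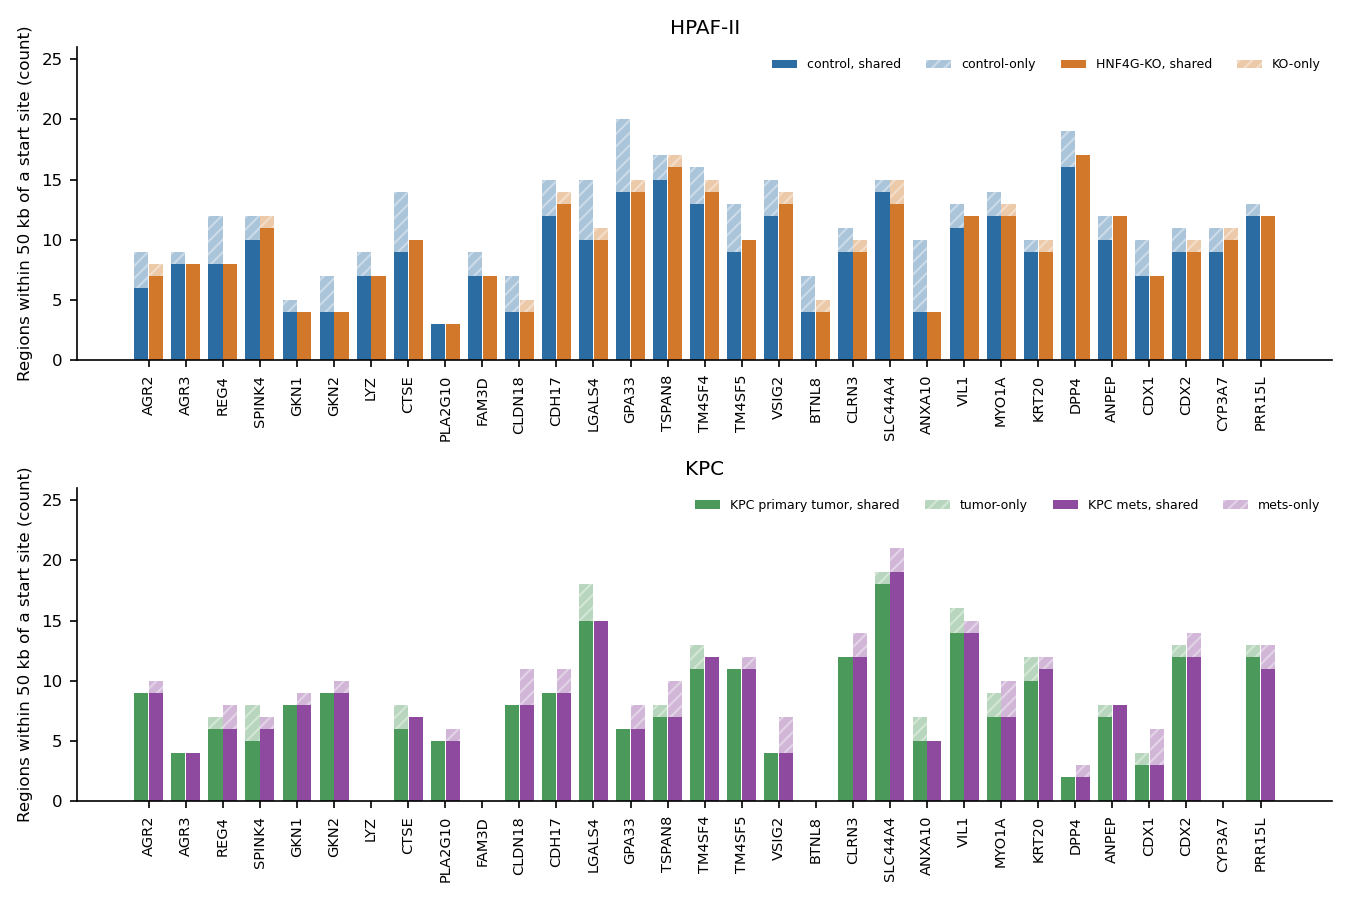
Regions within 50 kb of each member's start sites, with HPAF-II above and KPC below; solid bars count regions shared by the pair and hatched bars those in one list. GPA33 and ANXA10 carry the most control-only regions, 6 each, and HNF4G-KO bars have at most 2 hatched regions.

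Control-only regions made up 81 of the 358 control regions near members (22.6%, 18.6 to 27.2), beside 25.0% of all control regions. KO-only regions were 17 of 306 (5.56%, 3.50 to 8.72), beside 6.76%. Mets-only regions were 37 of 257 (14.4%, 10.6 to 19.2), beside 20.2%, and here the interval lay below the share of all regions. Tumor-only regions were 25 of 240 (10.4%, 7.16 to 14.9), beside 8.51%. The lists differ in length, and with lists cut to equal size the shares near members were 12.3% control-only and 10.5% KO-only, and 10.9% mets-only and 19.6% tumor-only, so that in KPC the order of the shares turned round. Over all regions the shares in lists of equal size were 15.1% control-only and 12.7% KO-only, and 14.0% mets-only and 15.6% tumor-only, so the order turned round there too. Read depth is unknown, and its part in these shares was not tested.

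The one-list regions were weak. In the upper tercile of the control list none of 138 regions near members was control-only (up to 2.71% by the interval), and none of 119 was KO-only in the upper tercile of the HNF4G-KO list. In the lower tercile 67 of 111 were control-only (60.4%, 51.1 to 69.0), beside 60.2% of all. In mets 31 of 82 were mets-only in the lower tercile (37.8%, 28.1 to 48.6), beside 45.0%, and 5 of 79 in the middle tercile (6.33%, 2.73 to 14.0), beside 13.3%.

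**Figure D3:**
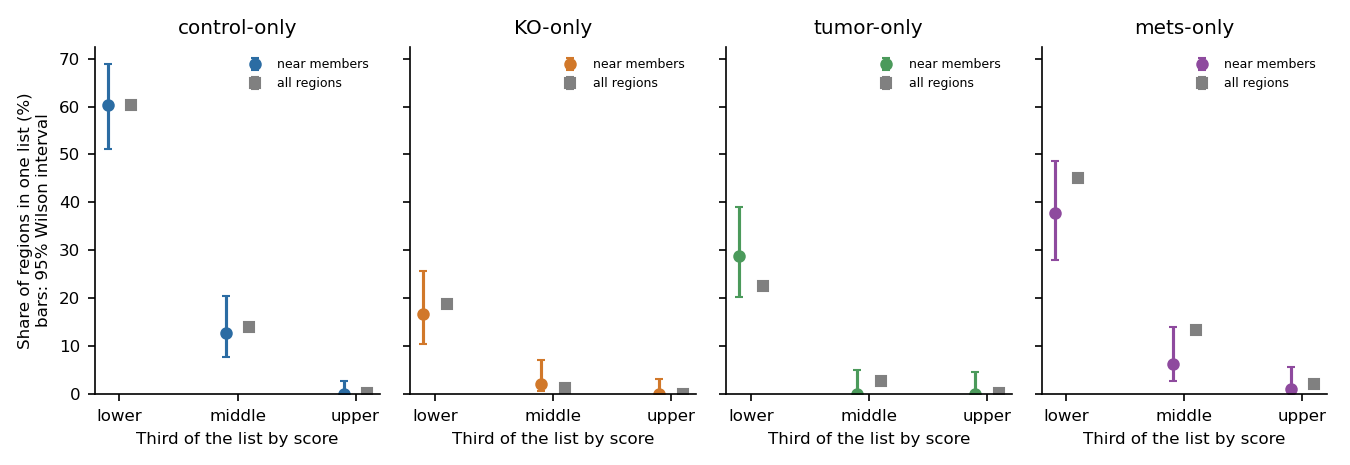
Share of regions in one list for the lower, the middle and the upper tercile of a list by score, in percent, near members (colored circles) and over all regions (grey squares); bars are 95% Wilson intervals. Near-member values fall from 60.4% in the lower tercile to 0% in the upper tercile for control-only regions.

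Of the 31 members, 30 had a control-only region, beside 76.7% of coding genes, and 16 a KO-only region, beside 34.8%. Of the 27 in mouse, 21 had a mets-only region, beside 56.4%, and 15 a tumor-only region, beside 32.6%. Members and all genes were not matched for the number of regions near them. ANXA10, an annexin of gastric epithelium, lost the largest part of its regions, with 6 of 10 in control only. GPA33 had 6 of 20, CTSE, an aspartic protease of gastric cells, 5 of 14, LGALS4 5 of 15, and REG4 and TM4SF5 had 4 of 12 and 4 of 13. At ANXA10 the control-only regions stood at percentiles 50.1, 38.1, 33.0, 15.5, 8.12 and 8.12. Of the GPA33 set the strongest stood at 34.8, in an intron, and the others at 23.4, 23.1, 3.24, 1.53 and 1.13.

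In CTSE the strongest stood at 47.5. At LGALS4 the highest pair stood at 33.0 each, and at TM4SF5 the highest at 36.1. In HNF4G-KO only SLC44A4, a choline transporter-like protein, had 2 KO-only regions, at 41.6 and 32.4, and both lay over 30 kb from its starts, at 42755 and 31241 bases. One of these had HSPA1B as the nearest coding gene and the other ZBTB12.

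**Figure D4:**
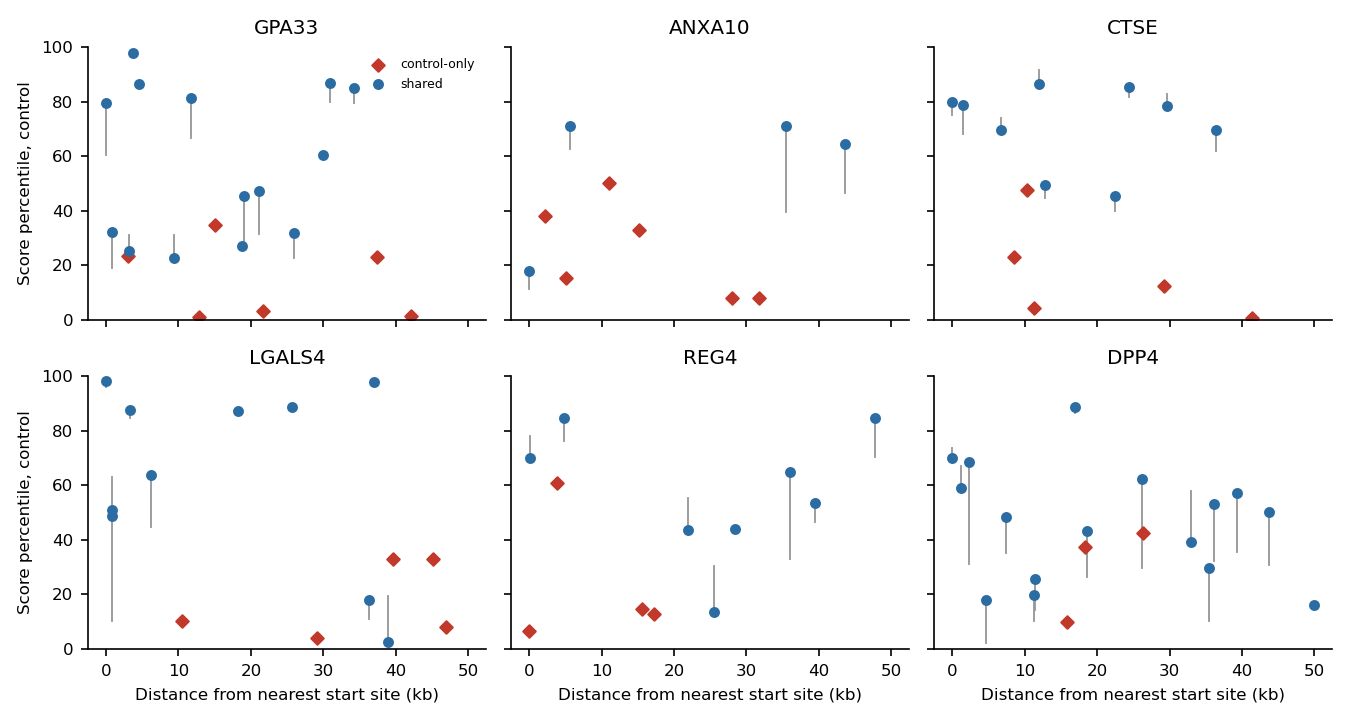
Control regions of 6 members by distance from the nearest start site in kb (horizontal) and score percentile in control (vertical); red diamonds are control-only, blue circles are shared, and grey lines run to the percentile in HNF4G-KO. At ANXA10 the 6 control-only regions lie among 4 shared ones that all fell, and at DPP4 13 of 16 shared regions fell.

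The strongest control-only region near a member lay 3844 bases from the REG4 start, between genes, at percentile 60.7. The next were in an intron of TSPAN8 (58.0), in an intron of ANXA10 (50.1), 29909 bases from CLRN3 in an intron of PTPRE (49.4) and 10317 bases from CTSE, nearer to RAB7B (47.5). The REG4 region is shown as the strongest region that was absent from HNF4G-KO, and it holds none of the 7 consensus sequences. Its neighbor with the HNF4 consensus, 4824 bases from the same start, was in both lists at 84.8 and 76.3.
REG4 at chr1:119815426-119815725 (plus strand): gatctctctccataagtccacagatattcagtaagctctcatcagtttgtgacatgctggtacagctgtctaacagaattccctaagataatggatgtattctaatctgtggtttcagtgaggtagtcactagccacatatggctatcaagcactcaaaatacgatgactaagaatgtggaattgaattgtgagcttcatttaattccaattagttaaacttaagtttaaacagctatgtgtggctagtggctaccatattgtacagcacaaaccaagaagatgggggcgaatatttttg

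The strongest mets-only region was also at Reg4, but 44903 bases from its start, at percentile 77.6. It is shown for comparison and likewise holds none of the 7 consensus sequences. It was the only mets-only region of the upper tercile near a member.
Reg4 at chr3:98267207-98267506 (plus strand): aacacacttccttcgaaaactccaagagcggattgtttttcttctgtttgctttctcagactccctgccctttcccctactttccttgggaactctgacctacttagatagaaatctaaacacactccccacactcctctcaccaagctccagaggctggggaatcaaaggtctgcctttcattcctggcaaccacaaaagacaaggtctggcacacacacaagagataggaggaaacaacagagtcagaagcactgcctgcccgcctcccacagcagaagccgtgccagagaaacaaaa

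The next mets-only regions were 42768 bases from Cdx1 (61.0) and 31045 bases from Cldn18 (55.4), and a further one lay between Gkn1 and Gkn2 (50.9), 3514 bases from the nearer start. In mets, Cldn18, Tspan8, Vsig2, Myo1a and Cdx1 each had 3 mets-only regions. In tumor, Spink4 and Lgals4 had the most, with 3 each of 8 and 18. The strongest tumor-only regions near members stood at 28.9 near Vil1, at 28.1 in an intron of Anxa10 and at 27.2 near Reg4, all lower than the strongest of mets.

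The highest-scoring region near any member was a shared one in each list. In control it lay 12515 bases from BTNL8 at percentile 99.9, and in HNF4G-KO 26886 bases from MYO1A at 99.8, over an exon of NEMP1. In both KPC lists it was the same place near Lgals4, at 99.7 in tumor and 98.9 in mets, with Lgals7 as the nearest coding gene.

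Shared regions near members changed in rank by a median of −3.38 points in HNF4G-KO against control (interval −5.08 to −2.06 by order statistics, 277 regions), and 184 of 277 were lower. All 88632 shared regions changed by a median of −4.65 points. Ranked among shared regions only, the members' median was 1.27 and that of all regions 0.676, so the direction of the members' median depended on the ranking. Of the 31 members 30 had a median under 0 in the first ranking and 8 in the second.

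In the KPC pair the 215 shared regions near members rose by a median of 5.06 points in mets (2.201 to 6.93), and 151 were higher. All 62280 shared regions rose by 3.67 points, which lay inside the members' interval. Among shared regions only the members rose by 1.72 and all regions by 0.988.

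**Figure D5:**
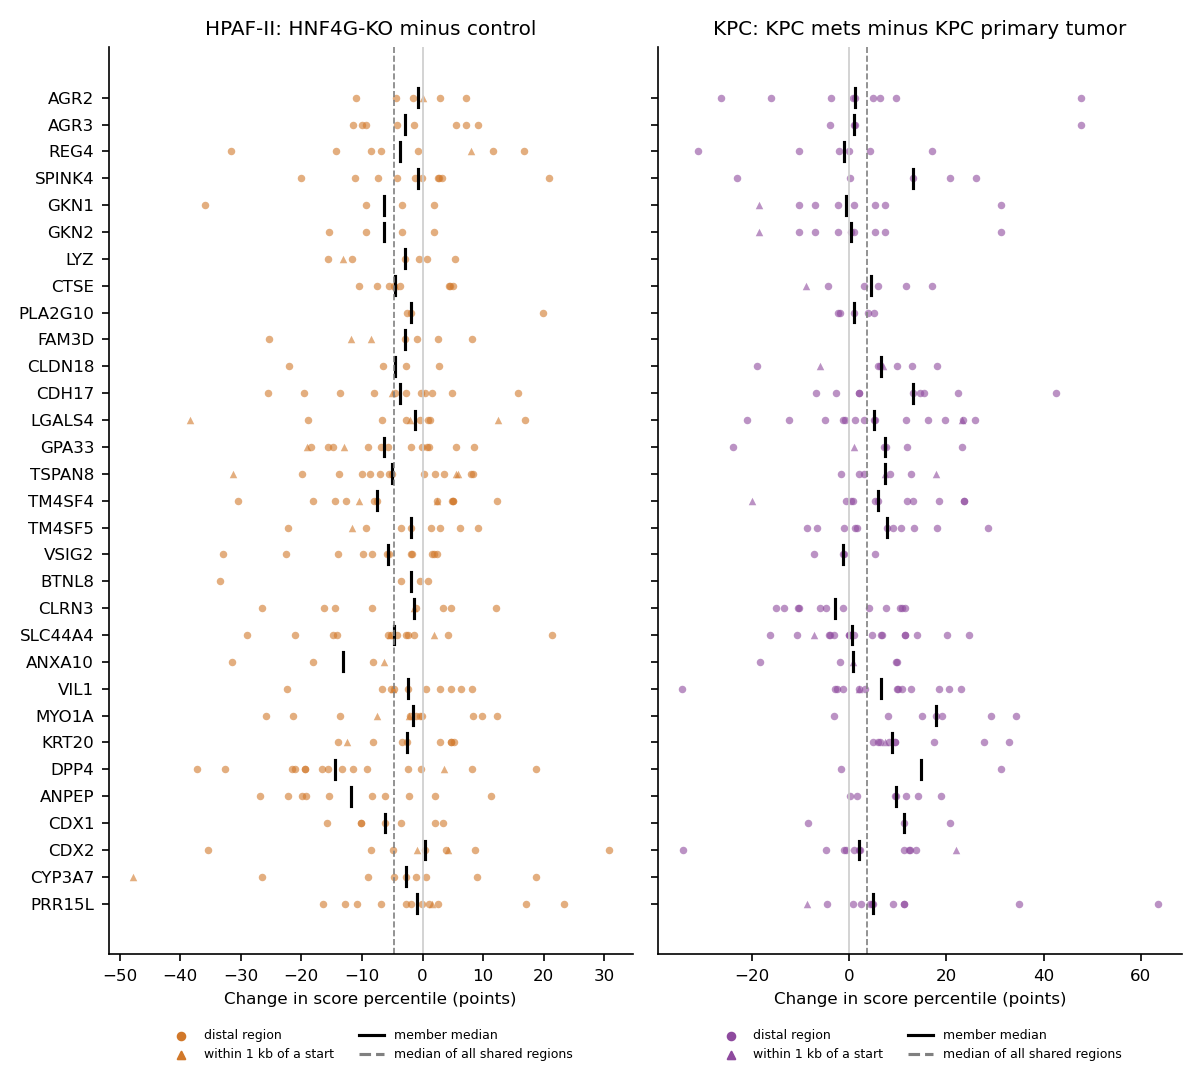
Change in score percentile of every shared region near each member, in points, for HNF4G-KO minus control (left, orange) and mets minus tumor (right, purple); circles are distal regions, triangles regions within 1 kb of a start, black bars member medians and the dashed line the median of all shared regions, −4.65 and 3.67. DPP4, ANXA10 and ANPEP lie farthest left in HPAF-II, and MYO1A and CDH17 lie to the right in KPC.

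DPP4 and ANPEP, both brush border peptidases, and ANXA10 had the lowest medians in HPAF-II, counted from the control regions. DPP4 changed by a median of −14.4 points over 16 shared regions, of which 13 were lower, while the region over its main start rose. Its largest falls were a region over an exon, 2285 bases from a start, from 68.4 to 31.3, and one 26208 bases away from 62.1 to 29.5, or to 8.54 in a second KO region that it overlapped. A region 33017 bases from the DPP4 start went the other way, from 39.3 to 58.0. ANXA10 changed by −13.1 points, with 4 of 4 lower, and the region 35477 bases from a start went from 70.9 to 39.4. ANPEP changed by −11.9 points over 10 regions, of which 8 were lower. Counted from the HNF4G-KO regions, the medians were −15.6 over 17 regions for DPP4, −13.1 over 4 for ANXA10 and −15.7 over 12 for ANPEP.

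Ranked among shared regions only, these 3 stayed below 0, at −3.27 for DPP4, −5.81 for ANXA10 and −1.82 for ANPEP. At the other end CDX2 had a median of 0.351 and was the only member above 0, followed by SPINK4 (−0.687) and AGR2 (−0.797), which stood at −1.20 and −1.65 counted from the HNF4G-KO regions. Within CDX2 the changes ran from −35.3 at a region in an intron of FLT3, 43054 bases away, to 30.7 at a region 22967 bases away. CDX1, its relative, had no promoter region and a median of −6.17 over 7 regions.

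Among the 26 mouse members with at least 3 shared regions, Myo1a had the highest median in KPC, 17.9 points over 7 regions, and 6 of these were higher. None of the 7 had Myo1a as the nearest coding gene, and the closest lay 18840 bases from its start. Their nearest coding genes were Nab2, Nemp1, Zbtb39 and Rdh16f1. Cdh17 had a median of 13.1 over 9 regions. Spink4 had one of 13.2 over 5 tumor regions and 6.72 over the 6 mets regions, so its place depended on the list it was counted from. The 2 regions of Dpp4 had a median of 14.9. Counted from the tumor list, 10 of 10 shared regions of Krt20 ranked higher, by 4.95 to 33.0 points, and 7 of 7 of Anpep, by 0.188 to 18.8. Counted from the mets list, 10 of 11 were higher at Krt20 and 7 of 8 at Anpep, the exceptions being −26.4 and −9.53 points. Clrn3 (−2.95), Vsig2 (−1.11) and Reg4 (−0.978) had the lowest medians. Ranked among shared regions only, 10 of 10 tumor regions of Krt20 and 6 of 7 of Anpep were higher.

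The largest single rise near a member was over an exon of Prr15l, 5374 bases from a start, from percentile 0.219 in tumor to 63.8 in mets. A second tumor region, 4922 bases from a start and at 28.9, overlapped the same mets region, so that both were set against the same value. Between Agr2 and Agr3 a region rose from 13.1 to 60.9, and 1257 bases from the Cdh17 start one rose from 17.6 to 60.2. Near Cdx2, closer to Pdx1, a region fell from 57.0 to 23.0. Near Vil1, in an exon of Ctdsp1, a tumor region at 39.6 overlapped a pair of mets regions, at 5.30 and 52.2, and so had no single direction.

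Another list of 30 gut epithelial and classical genes, among them TFF1, CEACAM6, HNF4A and GATA6, was read in the same way. It had 22 promoters open in control and 20 in HNF4G-KO, and 13 of 27 in tumor and 10 of 27 in mets. Of all coding genes, 74.8%, 72.7%, 57.9% and 59.1% were open in these lists in the same order. The promoters of SLC26A3, an intestinal anion exchanger, and GATA4 were open in control only, beside 3.59% of the coding genes open in control. Those of Tff1, a trefoil peptide, Tmem45b and Myo7b were open in tumor only, beside 1.83% of the coding genes open there. None was open in mets only, beside 3.71% of the coding genes open in mets. Its control-only share was 20.2% (16.2 to 24.8), beside 25.0% of all regions. Its mets-only share was 16.2% (11.9 to 21.7), beside 20.2%, and its tumor-only share 13.5% (9.45 to 18.9), beside 8.51%, with the tumor-only interval above the share of all regions. Its median changes were −3.82 and 4.62 points.

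Among the remaining consensus sequences, HNF1 (GTTAATNAT) was found in 13 of 358 control regions near members (3.63%, 2.13 to 6.11), beside 1.90% of all control regions, and in 14 of 240 tumor regions (5.83%, 3.51 to 9.55), beside 2.22%. In both cases the interval lay above the share of all regions. Within 200 bases around the region's center the difference shrank from 1.73 to 0.564 points in control and from 3.61 to 0.668 in tumor. FOXA, CDX and AP-1 shares near members in control, 10.3%, 20.4% and 35.8%, had intervals that included the shares of all regions, 9.76%, 19.8% and 39.1%. The GATA consensus AGATAAG was found in 9.22% near members (6.64 to 12.7), beside 6.63%, and with 200 bases around the center the difference was −0.0693 points.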

How the data were processed

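ATAC-seq region lists of 4 groups were analysed, each standing for 4 replicates. The lists carry a score that the authors deposited with each region, whose scale is not stated. The submitters' processing notes name Bowtie2 2.2.6, MACS2 2.1.1.20160309 and DiffBind. How replicates were combined and the peak threshold are not given in the sources used here. All regions fit hg38 or mm10. Start sites came from GENCODE 44 and M21. Regions of a pair that overlapped by 1 bp or more were called shared, and each was set against its longest overlap. Scores became percentiles within a list, and a change is HNF4G-KO minus control or mets minus tumor. Percentages have 95% Wilson intervals and medians order-statistic intervals. No count model or p-value could be used, and read depth is unknown. Consensus sequences were searched exactly on both strands of the whole region. Functions were tested on simulated data. Analysis used Python 3.11.15, pandas 2.3.3 and SciPy 1.17.1. The members, gene lists and alternatives were chosen with earlier results of these data known. Every member was counted in every list. Region values were given for members with a promoter in one list, those with the most one-list regions or the most extreme median changes, and the strongest one-list regions. Promoter changes, neighbors of these regions and the limit of 10 points were chosen after the values were seen. Some items of the deposited lists are not reported here.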

Additional observations from a re-analysis of the deposited data

How the results depend on the processing

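No paired analysis was possible because each group is given as 1 list with no values per replicate, and for the same reason no replicate could be left out. Control-only regions near members were 17.2% in the upper 50% of each list and 12.3% in lists of equal size. KO-only regions were 10.5% in lists of equal size, tumor-only regions 19.6% there and 3.60% in the upper 50%, and mets-only regions 20.9% in the upper 50%. Over all regions these shares were, in the same order, 22.1%, 15.1%, 12.7%, 15.6%, 8.46% and 22.2%. With lists of equal size 10.9% were mets-only, so that the tumor-only share was the higher of the pair, as it was over all regions (14.0% mets-only); the cause was not tested. Ranked among shared regions only, the median change was 1.27 in HPAF-II, of the opposite sign, and 1.72 in KPC. Under that ranking 6 of 34 promoter changes also turned sign: CTSE to 0.333, CDH17 to 0.430, CLRN3 to 6.79, ANXA10 to 1.56 and CDX2 to 2.51 in HPAF-II, and ANXA10 to −1.59 in KPC. The median of SPINK4 turned to 2.53 and that of AGR2 to 3.86. Promoters that rose by 10 points numbered 2 in HPAF-II, and those that fell numbered 5 in KPC, an alternative chosen after seeing the data. In the upper 50% of a list, 7 of 27 members had a promoter region in mets and 7 in tumor, beside 48.3% and 46.3% of coding genes. Within 200 bases of the center the excess over all regions was −0.0693 points for GATA in control and 0.668 for HNF1 in tumor, and HNF4 with 1 mismatch gave 2.91 points in tumor. Other overlaps, distances and start sites left the one-list shares within their intervals. Of 116 one-list counts of single members, 10 moved with 50% overlap and 16 with a gap of 500 bp. Read depth per list is unknown and limits every count of regions in one list.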
